A study of Mus musculus with 4 samples.

Results

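The genes described here are the nuclear genes of oxidative phosphorylation, in single regulatory T (Treg) cells of the mouse thymus. They were taken by symbol, as every gene that starts with Ndufa, Ndufb, Ndufc, Ndufs, Ndufv, Uqcr, Cox4i, Cox5, Cox6, Cox7, Cox8 or Atp5, or is 1 of Sdha, Sdhb, Sdhc and Sdhd. Of 27998 genes counted, 93 matched and 85 of these had at least 200 unique molecular identifiers (UMIs, single counted RNA molecules) in all cells together. These 85 are called the members. They are 36 subunits of complex I, 4 of complex II, 8 of complex III, 13 of complex IV, 16 of complex V, and 8 complex I assembly factors (the Ndufaf genes), which the symbol rule takes in although they are not subunits. Ndufa4 was placed with complex IV, where its protein is now counted.

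The study profiled Il2 knockout (IL2 o/o), Il15 knockout (IL15 o/o), Il2 wild type (IL2 wt/wt) and Il15 wild type (IL15 wt/wt) mice, 1 sample of each, to ask what these cytokines do in Treg development. All 4 samples came from 3-week-old B6 mice that also carry Rag2-Gfp, which marks recently formed T cells, and Foxp3-Thy1a, in which the Treg-defining gene Foxp3 drives a Thy1.1 surface marker. Cells were sorted from the thymus as CD4+CD8-Thy1.1+GFP+, and the labels do not say how many animals stand behind a sample. The count table held 8273 cells whose barcodes end in 1 of 4 suffixes, here called libraries 1 to 4. No label ties a suffix to a genotype, so no genotype was compared, the libraries are not replicates of a group, and no p-value was computed.

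Libraries 1 to 4 held 1609, 2452, 2037 and 2175 cells. As a check of the label, Cd3e, a subunit of the T cell receptor complex, stood at 566 to 633 counts per 1000000 UMIs (CPM) over the libraries, Cd4 at 134 to 161 CPM and Foxp3 at 12.6 to 14.3 CPM, against 10.3 to 22.0 CPM for Cd8a and 23.6 to 51.7 CPM for Cd8b1 of the sorted-out CD8 receptor, so that Cd8b1 stood above Foxp3 in every library, while Il2ra, the IL-2 receptor alpha chain, ranged from 31.1 CPM in library 3 to 181 CPM in library 1. Median depth was 3857, 3640, 2501 and 3019 UMIs per cell, lowest in library 3, and 27 barcodes occurred in a pair of libraries. A second deposited table names 7231 of the cells as G1, the phase before DNA replication, and leaves out the other 1042. Among the 1042, the 17 genes of the G2 and M phase list and 17 of the 18 genes of the S phase list were higher, so that part of them are dividing cells.

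Oxidative phosphorylation makes ATP at the inner mitochondrial membrane. Complex I takes electrons from NADH and complex II from succinate, complex III passes them to cytochrome c, complex IV gives them to oxygen, and complex V (ATP synthase) uses the proton gradient that complexes I, III and IV build. Part of complexes I, III, IV and V is encoded by the mitochondrial DNA (the 13 mt- protein genes). Complex II and the many other subunits come from nuclear genes. T cells change how much they rely on this pathway as they go from rest to activation and division. In this assay a molecule is counted once at its 3′ end, whatever its length, so levels are given as CPM or percent of UMIs.

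The 85 members together held 874710 UMIs, 2.63% of all, close to the 2.39% of the 13 mt- protein genes. Complex V contributed 0.795%, complex I 0.766%, complex IV 0.709%, complex III 0.288%, complex II 0.0505% and the assembly factors 0.0225% of UMIs. A median complex V member stood at 494 CPM and a median complex IV member at 508 CPM, against 296 CPM in complex III, 187 CPM in complex I, 117 CPM in complex II and 25.0 CPM among the assembly factors. The ratio of nuclear to mitochondrial RNA therefore differed between complexes. For complex I the nuclear sum of 0.766% exceeded the mitochondrial 0.480%, whereas for complex IV the nuclear sum of 0.709% was below the mitochondrial 1.054%. For complex III the sums were alike, at 0.288% nuclear over the 8 genes taken and 0.284% from mt-Cytb alone. Nuclear subunits whose symbols the rule does not take are left out of these sums.

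In complex I, Ndufa13 (455 CPM), Ndufa3 (446 CPM) and Ndufa6 (425 CPM), all accessory subunits, had the most UMIs. The fewest were of Ndufs1, the largest iron-sulfur subunit, at 38.9 CPM, and Ndufv1, the subunit that binds NADH, stood at 93.7 CPM. The core redox subunits of complex I therefore lay at the low end of their complex in RNA. In complex II, Sdhb (the iron-sulfur subunit) reached 211 CPM, Sdha (the flavoprotein) 150 CPM, and the membrane anchors Sdhd and Sdhc 83.5 CPM and 59.3 CPM. In complex III, Uqcrh, the hinge protein, led with 948 CPM, followed by Uqcr10 (362 CPM) and Uqcrq (360 CPM), and Uqcrc2, a core subunit, had the fewest at 188 CPM. In complex IV, Cox4i1 (1066 CPM), Cox7a2l (959 CPM) and Cox7c (744 CPM) led. Cox7a2l is a relative of Cox7a2 that has been described as joining complexes III and IV into supercomplexes. Whether its protein does so in these B6 mice was not tested. In complex V, Atp5b (the catalytic beta subunit, 836 CPM), Atp5e (epsilon, 674 CPM) and Atp5l (subunit g, 601 CPM) led, and Atp5o (OSCP, a stalk subunit) had the fewest at 331 CPM. Among assembly factors Ndufaf8 led with 61.5 CPM.

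Several subunits exist as paralogs used in different tissues, and in each such pair 1 form carried nearly all of the RNA. Cox4i1 had 35434 UMIs, against 13 of Cox4i2, the form of lung and low oxygen. Cox6a1 had 13824 UMIs, against 1 of Cox6a2, the heart and muscle form. Cox6b1 had 20098 UMIs, against 392 of Cox6b2, the testis form. Cox7a2 had 13905 UMIs, against 74 of Cox7a1, the muscle form. Cox8a had 20008 UMIs, with 0 of Cox8b and 1 of Cox8c, and Ndufa4 had 16890 UMIs, with 0 of Ndufa4l2. Counts of 0 allow up to 0.380, 0.266, 0.525 and 0.359 CPM in libraries 1 to 4 (3 UMIs of each total). The 3 genes of the ring-forming c subunit, which encode the same mature protein, were all present: Atp5g2 at 533 CPM, Atp5g3 at 342 CPM and Atp5g1 at 333 CPM. The members nearest to the 200-UMI threshold were Ndufaf6 (233 UMIs), Ndufaf5 (388) and Cox6b2 (392) above it, and Atp5s (118), Cox7a1 (74) and Cox4i2 (13) below it.

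The members' summed share was 2.65%, 2.74%, 2.34% and 2.68% in libraries 1 to 4. Library 3 was thus the lowest, by 1.17-fold below library 2 (95% counting interval 1.16 to 1.18). Over all cells the mt- protein genes gave 2.44%, 2.39%, 2.41% and 2.34% in the same libraries and did not share this order. In G1-table cells the median cell had an mt- share of 2.34%, 2.25%, 2.11% and 2.26%, so there library 3 was lowest too. For the members the gap was 1.23-fold in complex V, 1.21-fold in complex II, 1.15-fold in complex I and 1.14-fold in complexes III and IV. Of the 85 members 75 had their lowest CPM in library 3 (39.1% of 8071 genes did), among them all 16 of complex V, and for 45 of them its interval lay below those of all other libraries (12.9% of genes). Cox7a2l, Ndufa6, Uqcrh and Ndufaf3 were highest in library 3 (39.9% of genes were). For 2 of them its interval lay above those of all other libraries (10.7% of genes).

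**Figure D1:**
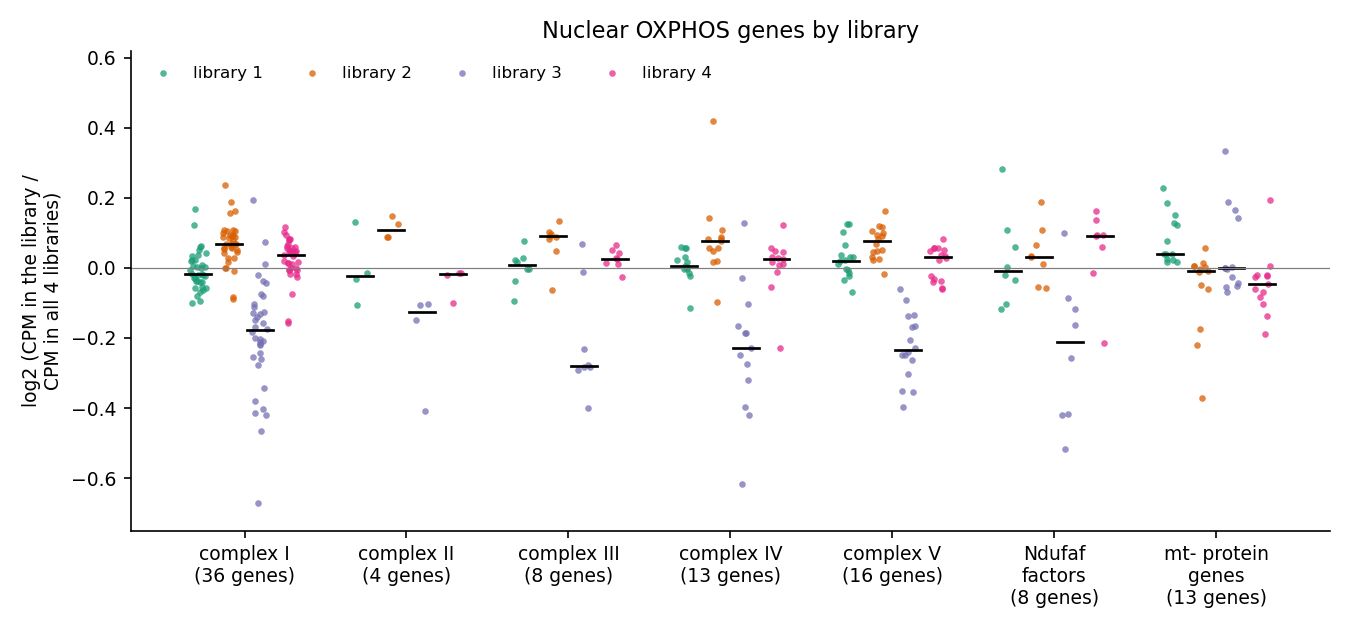
Each point is 1 gene in 1 library, as the log2 of its CPM there over its CPM in all 4 libraries together; columns are the complexes, the Ndufaf assembly factors and the mt- protein genes, colours are libraries and black bars are medians. The library 3 points of the nuclear genes lie mostly below 0, while those of the mt- genes lie on both sides of it.

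Library 3 also held other kinds of cells and shallower ones, and both moved with the members' share. In cells ranked by depth within each library and split into 4 bins of like size, the share rose with depth in every library. It was 2.27%, 2.42%, 2.55% and 2.87% from the lowest to the highest bin of library 1, and 2.004%, 2.24%, 2.29% and 2.51% in library 3. At a like depth the gap varied: the second bin of library 3, with a median of 2218 UMIs, gave 2.24%, beside 2.27% and 2.32% in the lowest bins of libraries 1 and 2, with medians of 2205 and 2154 UMIs. The third bin of library 3 gave 2.29% at 2810 UMIs, beside 2.48% in the second bin of library 4 at 2641 UMIs, and its deepest bin gave 2.51% at 4045 UMIs, beside 2.69% in the third bin of library 2 at 4405 UMIs. The mt- share was highest in the lowest bin of each library, at 2.95%, 2.96%, 3.45% and 2.55%. It fell with depth in libraries 1, 2 and 4, while in library 3 the deeper bins had 2.18%, 2.26% and 2.28%. Library 3 also had 73 cells in cluster 1, described below, where the other libraries had 536 to 871. With the 6 clusters present in all libraries weighted alike, the shares were 2.51%, 2.59%, 2.36% and 2.57%, a gap of 1.10-fold, and 70 members (33.5% of genes) were lowest in library 3. Cox7a2l (984 CPM), Uqcrh (920 CPM) and Ndufaf3 (35.3 CPM), highest in library 3 over all cells, were then among those lowest there. Ndufa6 was still highest in library 3, at 467 CPM.

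**Figure D2:**
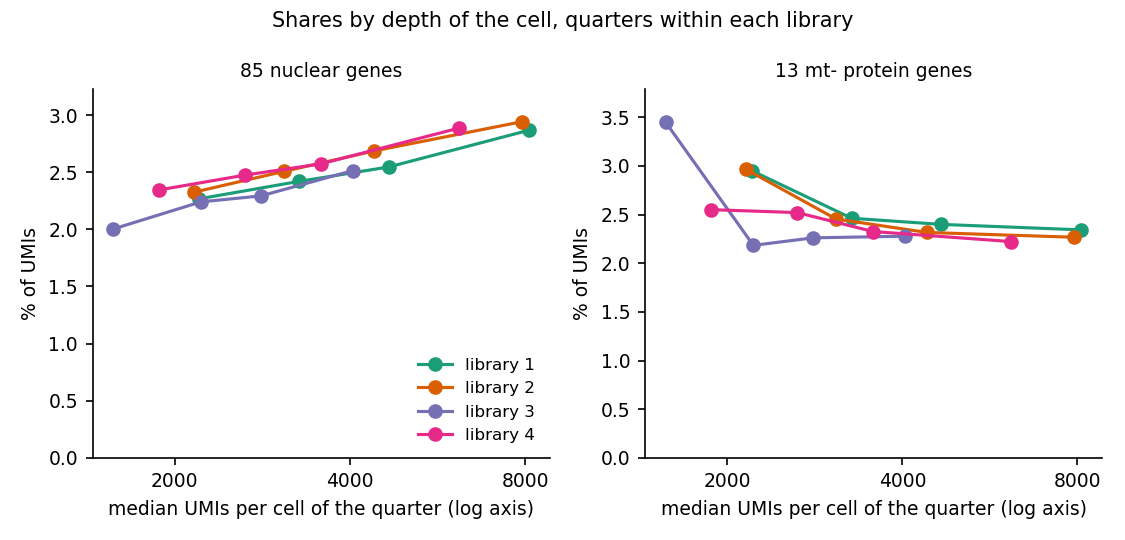
Share of UMIs from the 85 nuclear genes (left) and from the 13 mt- protein genes (right) in 4 bins of cells ranked by depth within each library, against the bin's median UMIs per cell on a log axis. The nuclear share climbs with depth in all 4 libraries and the mt- share is highest at the lowest depth.

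A few members differed between libraries well beyond this. Ndufb10, an accessory subunit in the membrane arm of complex I, stood at 203, 213, 114 and 162 CPM in libraries 1 to 4. Its interval in library 3, the lowest, lay below those of the other libraries, a 1.88-fold gap. In each of the 6 clusters found in all libraries Ndufb10 was lowest in library 3, with means over those clusters of 212, 209, 113 and 156 CPM, a gap of 1.87-fold with these clusters weighted alike. Besides Ndufb10, Atp5a1, Atp5e, Atp5f1 and Uqcr10 were lowest in library 3 in each of the 6 clusters (0.793% of genes were), and these 5 were picked out after their values were seen. Atp5b was at 854, 936, 635 and 822 CPM, while the most abundant member, Cox4i1, was at 1049, 1082, 1046 and 1076 CPM and hardly varied.

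Cells outside the G1 table were next set against G1-table cells. The members' summed share was 2.70% outside and 2.62% in G1-table cells, a log2 ratio of 0.02 (interval 0.01 to 0.03) that was stratified by library. By library the outside cells had 2.78%, 2.74%, 2.09% and 2.76%, against 2.62%, 2.74%, 2.36% and 2.66% in G1-table cells. The outside cells of library 3 were thus lower and the others level or higher. The mt- protein genes were at 2.95% outside and 2.28% in G1-table cells, a log2 ratio of 0.37 (0.36 to 0.38). By library they were at 2.70%, 2.86%, 4.71% and 2.70% outside, against 2.38%, 2.28%, 2.18% and 2.27% in G1-table cells, higher outside in all 4.

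**Figure D3:**
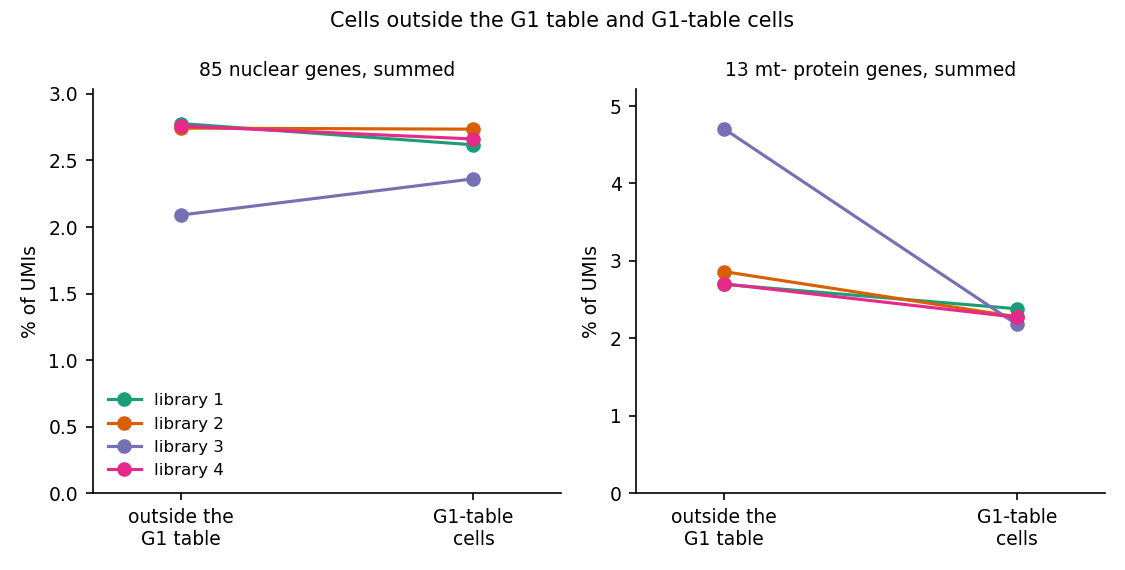
Share of UMIs from the 85 nuclear genes (left) and the 13 mt- protein genes (right) in cells outside the G1 table and in G1-table cells, 1 line per library. The mt- share is higher outside in every library and most in library 3, at 4.71%; the nuclear share is lower outside only in library 3.

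A gene was called where its CPM was at least 25% higher, or lower by the same factor, with a counting interval off no difference, and went the same way in all libraries read. By this rule 3 members were higher outside (12.1% of 8071 genes were) and 3 lower (11.3% of genes). The members that were higher were Cox6b2, Ndufaf2 and Uqcr10. Uqcr10, a small subunit of complex III, had 508, 485, 310 and 401 CPM outside, against 351, 377, 271 and 348 CPM in G1-table cells, and was higher outside in each library (log2 0.37, 0.30 to 0.43). The members that were lower were Ndufaf4, Cox7a2l and Ndufa6. Ndufaf4, a complex I assembly factor, had 24.4, 22.7, 23.2 and 18.2 CPM outside, against 37.2, 40.3, 34.2 and 37.8 CPM in G1-table cells (log2 -0.78, -1.05 to -0.51). Cox7a2l had 709, 658, 817 and 719 CPM outside, against 1022, 953, 1072 and 1027 CPM in G1-table cells, without overlap (log2 -0.51, -0.56 to -0.46). At 1.5-fold 0 members were higher (7.38% of genes) and 1, Ndufaf4, was lower (3.35% of genes). Of the mt- protein genes 8 of 13 were called higher and 0 lower. They were led by mt-Nd1, with 2772, 2914, 4473 and 2584 CPM outside, against 2222, 2232, 1957 and 2064 CPM in G1-table cells (log2 0.45, 0.43 to 0.48).

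The outside cells were of several kinds. The 11 genes of the proliferating marker list were all higher outside and summed to 3761 CPM there (821 to 4283 by library), against 108 CPM in G1-table cells (21.7 to 151 by library). Of the 1042 outside cells, 384 fell in the proliferating cluster 7, with a median of 9626 UMIs, where the members were at 2.85%, against 2.62% in all G1-table cells (log2 0.09). There 11 members were higher (17.2% of genes) and 4 lower (23.6%), and the mt- sum was level (log2 -0.01). A further 237 fell in the unnamed cluster 8, with a median of 1553 UMIs, where the members were at 1.94% (log2 -0.39, 35 members lower with 15% of genes and 4 higher with 10.3%) and the mt- genes at 6.82% (log2 1.59). The remaining 421 had 2.43% from the members (log2 -0.10, 4 lower with 2.83% of genes and 0 higher with 4.66%) and 3.83% from the mt- genes (log2 0.75). Without cluster 7, 0 members were higher (9.12% of genes) and 14 lower (6.92%), and the summed ratio was -0.16, so the sign of the sum rests on the dividing cells. It was also negative with every cell weighing alike (-0.09) and with totals that leave out mt- and ribosomal protein genes (-0.05), and just below 0 without library 1 (-0.0015). Stratified by library and cluster, where a call needs 1 direction in every stratum, 0 members were called either way, as were 0.112% of genes higher and 0.0745% lower, with summed log2 ratios of -0.09 for the members and 0.59 for the mt- genes. Within clusters the outside cells had a lower members' share in 7 of 9 and a higher mt- share in 9 of 9.

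The cells formed 9 clusters, made without the members, the mt- and ribosomal protein genes and the cell cycle lists. Clusters were named from marker lists. Cluster 1 (2179 cells, led by Socs2) met the resting or IL-2-signalled Treg-like markers, cluster 4 (847 cells) the TCR-signalled, cluster 5 (689) the interferon-response, cluster 6 (587) the effector, cluster 7 (463) the proliferating and cluster 9 (98) the double-positive thymocyte-like markers. Clusters 2 (1935 cells, led by A530021J07Rik, Tmie and Tspan9) and 3 (1179 cells, led by Nrp2 and Igsf3) met no list. Cluster 8 (296 cells) met the erythroid markers only through 1 cell, which held 10398 of its 10413 haemoglobin UMIs, and is left unnamed. Every cluster was set against the cells of all the others together.

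With libraries pooled, the members' summed share ran from 2.004% in cluster 8, where it rests on library 3, to 3.09% in cluster 9. It was 2.26% in cluster 5, 2.28% in cluster 2, 2.53% in cluster 3, 2.54% in cluster 1, 2.88% in cluster 7, 2.92% in cluster 4 and 2.95% in cluster 6. The clusters of high share include the deepest cells, with medians of 4662, 6251 and 9615 UMIs in clusters 4, 6 and 7, against 2377 and 2569 in clusters 2 and 5. Cluster 9 does not, with a median of 2334.5. The part of depth in these differences was not tested. By library, cluster 4 had 2.90%, 2.96%, 2.82% and 2.90%, and cluster 2 had 2.30%, 2.34%, 2.21% and 2.32%, without overlap. The full order did not hold in each library: cluster 8 was lowest at 1.53% in library 3, but its 2.25%, 2.41% and 2.34% in libraries 1, 2 and 4 differed from cluster 2 by less than counting error, and in libraries 2 and 4 lay above cluster 5. The intervals of clusters 8 and 5 overlapped in libraries 2 and 4. Counting either direction, 16, 38, 0, 25, 28, 9, 17, 44 and 39 members were called in clusters 1 to 9, where 24.8%, 37.9%, 12.3%, 46.3%, 22.3%, 22.1%, 43.5%, 27.2% and 23.4% of the 8071 genes were. At 1.5-fold 3, 9, 0, 11, 5, 1, 2, 29 and 16 members were called, where 13%, 20.4%, 6.43%, 29.5%, 13.9%, 8.98%, 24.5%, 23.7% and 20.5% of genes were. The members' share of calls was thus above that of all genes in clusters 2, 5, 8 and 9 and below it in the other clusters under the first rule, and above it only in cluster 8 at 1.5-fold.

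The TCR-signalled cluster 4, whose cells show the early genes of antigen receptor signalling, had 23 members higher (20.1% of genes) and 2 lower (26.2% of genes) than all other cells, and a summed log2 ratio of 0.16 (0.15 to 0.17). All genes tested had a median of -0.07 there and the members a median of 0.15. By complex, 9 of 36 were higher in complex I, 1 of 4 in II, 2 of 8 in III, 2 of 13 in IV, 5 of 16 in V, and 4 of 8 assembly factors. Ndufaf4 differed most. It had 93.0, 84.6, 127 and 83.5 CPM in cluster 4 of libraries 1 to 4, against 25.0, 27.2, 23.9 and 27.1 CPM in all other cells, with no overlap (log2 1.80, 1.63 to 1.97). Atp5g1, 1 of the c subunit genes, had 593, 575, 671 and 577 CPM in cluster 4, against 293, 319, 220 and 304 CPM in the other cells (log2 0.99, 0.93 to 1.05). Its companion Atp5g3 was higher by less (441 CPM in cluster 4, 325 CPM in other cells, log2 0.42), and Atp5g2 did not pass (522 CPM in cluster 4, 535 CPM in other cells). The 3 genes for 1 protein thus differed in their ratios. Ndufa12, an accessory subunit of complex I, had 293, 302, 324 and 303 CPM in cluster 4, against 159, 178, 110 and 167 CPM in other cells (log2 0.89). Its paralog Ndufaf2, which holds its place during assembly, was at 43.6 CPM in cluster 4 and 28.3 CPM in other cells (log2 0.61).

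The 2 members lower in cluster 4 were Cox7a2l and Ndufa6. Cox7a2l had 669, 671, 518 and 718 CPM in cluster 4, against 1009, 942, 1102 and 1022 CPM in other cells (log2 -0.59, -0.64 to -0.53). Ndufa6, a complex I subunit that binds the acyl carrier protein Ndufab1, had 323, 328, 328 and 343 CPM in cluster 4, against 436, 414, 503 and 437 CPM in other cells (log2 -0.40, -0.47 to -0.32). Ndufab1 itself was at 245 CPM in cluster 4 and 147 CPM in other cells (log2 0.70), so these partners had ratios of opposite sign. The mt- sum was lower in cluster 4 (log2 -0.14, -0.15 to -0.13). Of its genes mt-Co1, the catalytic subunit of complex IV, was called lower, with 2973 CPM in cluster 4 and 3840 CPM in other cells (log2 -0.36), while mt-Nd1 was at 2456 CPM and 2238 CPM (log2 0.13) and did not pass.

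The promoters of the members at both ends of the cluster 4 comparison are shown, since these go opposite ways in the same cells. RefSeq promoter windows (GRCm38.p6, 250 bases before to 50 after a gene's start) were matched by symbol for 71 of the 85 members. They were searched on both strands for 4 short motifs, none of which holds another: GCGCATGCG, bound by the respiratory factor NRF1, AAGATGGC (YY1), CCGGAAG (ETS factors, among them GABP) and CACGTG (the E-box of MYC and USF). The NRF1 motif was in 14.1% of the members (10 of 71) and in 1.95% of 27025 genes with a window. The YY1 motif was in 14.1% of members and 3.19% of genes, the ETS motif in 25.4% and 9.93%, and the E-box in 7.04% and 8.09%. Below are the 250 bases before the start of Ndufaf4 (chr4:24897833-24898082, plus strand) and Atp5g1 (chr11:96075632-96075881, minus strand), the called members of highest ratio with a window, and of Ndufa6 (chr15:82354292-82354541, minus strand) and Cox7a2l (chr17:83514334-83514583, minus strand), those of lowest ratio. Capitals mark a motif of the 4: the NRF1 motif in Ndufaf4, found on both strands at overlapping bases, and the E-box in Atp5g1.
Ndufaf4: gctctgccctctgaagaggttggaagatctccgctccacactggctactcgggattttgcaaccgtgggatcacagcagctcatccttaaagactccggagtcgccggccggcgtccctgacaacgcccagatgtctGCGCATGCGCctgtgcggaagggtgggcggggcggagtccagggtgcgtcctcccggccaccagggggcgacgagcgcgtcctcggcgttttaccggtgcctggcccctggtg
Atp5g1: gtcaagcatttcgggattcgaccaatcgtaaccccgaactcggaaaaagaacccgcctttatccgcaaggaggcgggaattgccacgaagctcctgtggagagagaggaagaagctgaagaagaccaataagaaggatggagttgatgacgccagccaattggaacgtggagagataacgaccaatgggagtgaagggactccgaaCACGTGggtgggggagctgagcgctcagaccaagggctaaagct
Ndufa6: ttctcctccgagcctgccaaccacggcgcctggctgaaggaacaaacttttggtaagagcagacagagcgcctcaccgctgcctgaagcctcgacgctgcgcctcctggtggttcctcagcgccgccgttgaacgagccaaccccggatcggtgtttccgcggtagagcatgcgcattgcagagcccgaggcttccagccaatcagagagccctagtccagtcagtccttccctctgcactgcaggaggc
Cox7a2l: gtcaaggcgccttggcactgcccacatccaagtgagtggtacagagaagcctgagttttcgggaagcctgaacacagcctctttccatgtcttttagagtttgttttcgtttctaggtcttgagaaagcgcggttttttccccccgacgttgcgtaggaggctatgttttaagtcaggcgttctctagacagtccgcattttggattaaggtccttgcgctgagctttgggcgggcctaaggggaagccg
None of the 4 motifs was found in the windows of Ndufa6 and Cox7a2l, which says only that these letters are not there.

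Clusters 2 and 5 stood at the other end. In cluster 2, 36 members were lower (19.7% of genes) and 2 higher (18.3%), with a summed log2 ratio of -0.20 (-0.21 to -0.19). Complex V had 10 of 16 members lower there, and complex I 12 of 36. Atp5g1 had 189, 204, 175 and 198 CPM in cluster 2, against 355, 378, 300.2 and 364 CPM in other cells (log2 -0.86, -0.96 to -0.76). Cox7a2l was again the exception, with 1473, 1357, 1219 and 1263 CPM in cluster 2, against 893, 850, 969 and 936 CPM in other cells (log2 0.52, 0.48 to 0.56). Ndufaf3, an assembly factor, was the other member higher, at 49.5 CPM in cluster 2 and 38.4 CPM in other cells. In the interferon-response cluster 5, 27 members were lower (14.2% of genes) and 1, Cox7a2l, was higher (8.1% of genes), at 1344 CPM in cluster 5 and 935 CPM in other cells (log2 0.49). The summed log2 ratio was -0.17 (-0.18 to -0.15). With each cell weighing alike 18 members were lower in cluster 2 and 13 in cluster 5. In the resting Treg-like cluster 1, 14 members (16.5%) were lower, which is under the 18.4% of genes, with a sum of -0.11. With each cell weighing alike 4 were lower and the sum was -0.03, and with totals that leave out mt- and ribosomal protein genes it was -0.05. Cox7a2l and Ndufa6 were the 2 that were higher (6.34% of genes). Ndufa6 had 527, 477, 607 and 487 CPM in cluster 1, against 374, 365, 482 and 396 CPM in other cells (log2 0.39). Cluster 3 was level, with a summed log2 ratio inside an interval of -0.01 to 0.01 and 0 members called either way (4.56% of genes higher and 7.74% lower).

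In the dividing and effector cells more members were higher than lower. In cluster 7, 13 members (15.3%) were higher and 4 (4.71%) lower, each under the share of all genes (18.3% higher and 25.2% lower). The sum was 0.12 (0.11 to 0.13). With totals that leave out mt- and ribosomal protein genes that sum was 0.01, with 10 members higher and 5 lower. Cox8a, a small complex IV subunit, had 837, 844, 820 and 875 CPM in cluster 7, against 581, 592, 479 and 570.3 CPM in other cells (log2 0.55), though library 3 had only 5 cells of this cluster. Those lower were Cox7a2l (597 CPM in cluster 7, 1018 CPM in other cells, log2 -0.75), Ndufa6 (log2 -0.58), Ndufaf4 (27.5 and 36.5 CPM, log2 -0.44) and Uqcrh (737 and 982 CPM, log2 -0.40). Atp5g1, called higher in cluster 4, was not called in cluster 7, at 339 CPM in cluster 7 and 332 CPM in other cells, while Ndufaf2 was higher in both, with 49.3 CPM in cluster 7 and 27.4 CPM in other cells. In cluster 6, 8 members were higher (7.35% of genes) and Cox7a2l alone lower (14.8%), with a sum of 0.16 (0.15 to 0.17). Of the 16 complex V members Atp5g1 and Atp5g2 were called higher there. Library 3 had only 15 cells of cluster 6 and was not read for these calls. In it Atp5g1 was at 205 CPM in cluster 6 and 261 CPM in other cells, and Atp5g2 at 606 and 446 CPM. With totals that leave out mt- and ribosomal protein genes 19 members were higher. In cluster 9, 37 members were higher (17.1% of genes) and 2 lower (6.32%), with a sum of 0.27 (0.24 to 0.29), beside a median of 0.27 over all genes and 0.38 over the members. With totals that leave out mt- and ribosomal protein genes 22 were higher and the sum was 0.15. The 11 proliferating markers were also 1.5-fold or more higher in this cluster, of which 2 were called, and summed to 1317 CPM in cluster 9 (23.1 to 2169 by library) and 706 CPM in other cells (55.3 to 949); their part in the result was not tested. Cox6b2, low elsewhere, had 46.1, 31.5, 35.5 and 71.9 CPM in cluster 9, against 10.7, 15.7, 7.14 and 9.44 CPM in other cells (log2 2.12, 1.39 to 2.86), on 15 UMIs and with only 13 cells in library 1.

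**Figure D4:**
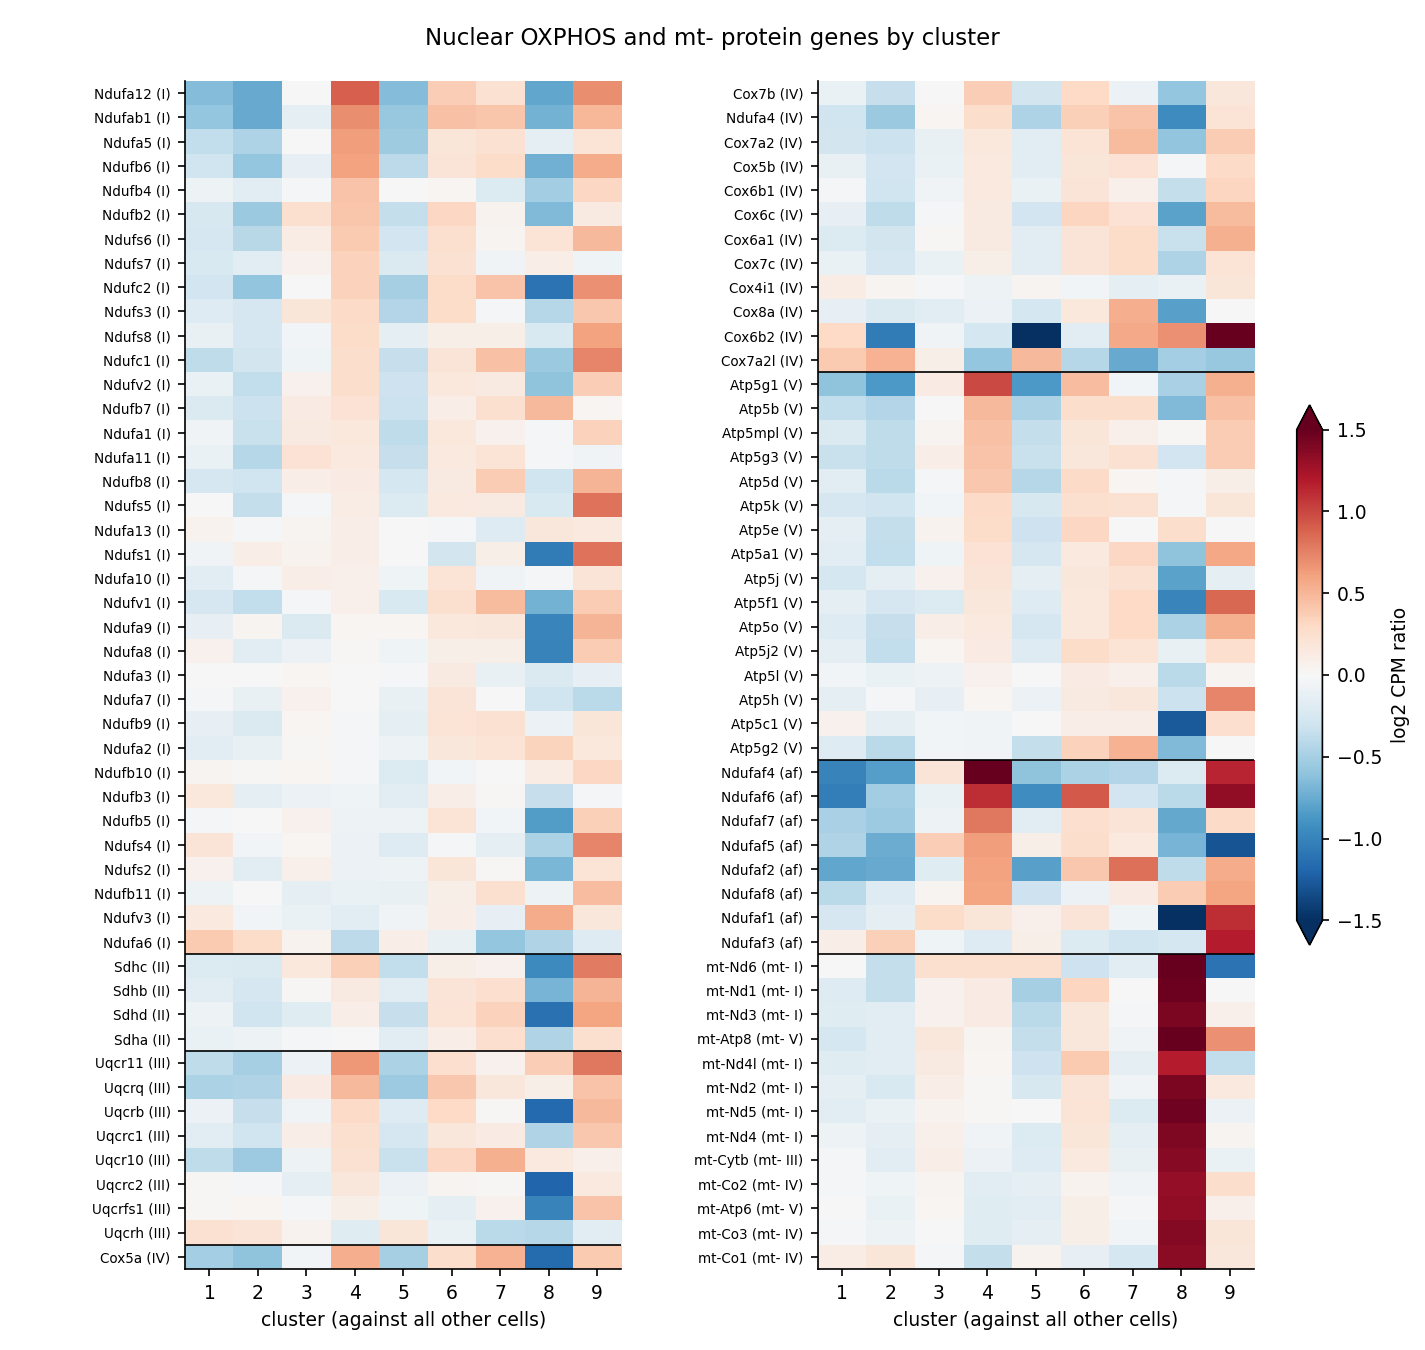
Log2 CPM ratio of each cluster against all other cells for the 85 nuclear genes and 13 mt- protein genes, colour limited to 1.5 either way; the complex is given after each symbol (af, assembly factor), and genes are sorted within it by their ratio in cluster 4. Most members are blue in clusters 1, 2, 5 and 8 and red in 4, 6, 7 and 9, while Cox7a2l, Ndufa6 and Uqcrh show the reverse outside cluster 8.

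Cluster 8 had the highest mt- share. The mt- protein genes made up 5.98% of its UMIs and 2.34% in other cells (log2 1.37, 1.35 to 1.38), with 12 of 13 called higher. They were at 6.82% in its 237 cells outside the G1 table and at 2.91% in its 59 G1-table cells. With G1-table cells only, on both sides, the log2 ratio was 0.37. The members went the other way, with 40 lower (16.3% of genes), 4 higher (10.9% of genes) and a summed log2 ratio of -0.35 (-0.38 to -0.32). With totals that leave out mt- and ribosomal protein genes the members' sum was -0.22, with 26 lower and 4 higher. In G1-table cells only it was -0.20, with 17 lower and 1 higher. Cox5a, a complex IV subunit on the matrix side, had 227, 190, 67.0 and 189 CPM in cluster 8, against 361, 392, 276 and 360 CPM in other cells (log2 -1.15). The members higher were Ndufv3, Ndufb7, Uqcr11 and Ndufa2. Ndufv3 had 314, 460, 277 and 456 CPM in cluster 8, against 246, 265, 225 and 243 CPM in other cells (log2 0.55, 0.34 to 0.77). The members' sum in this cluster was 2.25%, 2.41%, 1.53% and 2.34% in libraries 1 to 4, and library 3 gave 160 of its 296 cells. Without library 3 the sum was -0.21, with 29 members lower and 8 higher, close to the -0.24 of cluster 2 and of cluster 5 without library 3. A median cell of cluster 8 had 1602 UMIs, the lowest of the 9 clusters, and the part of depth or of cell quality in its values was not tested.

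Across the clusters other than 8, the sign of each member was compared with that of the sum, of which it is a part. Of the 85, 24 had the sign of the sum in all 8 clusters and 26 in all but 1. Cox7a2l, Ndufa6 and Uqcrh had the opposite sign in all 8, although the sum in cluster 3 was near 0. Since members make up the sum and all genes were not counted alike, this cannot show that members moved together more than other genes. Cox7a2l ran from 597 CPM in cluster 7 to 1344 CPM in cluster 5, and Uqcrh from 737 CPM in cluster 7 to 1085 CPM in cluster 5. Cox4i1 stayed between 988 and 1207 CPM. The span between a member's lowest and highest log2 ratio had a median of 0.82. It was narrowest for Atp5l (0.23) and Ndufa3 (0.26), and widest for Cox6b2 (3.77), Ndufaf4 (2.80) and Ndufaf6 (2.36), which are of low count, and Atp5g1 (1.85) and Ndufa12 (1.65) were the widest of the more abundant members.

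**Figure D5:**
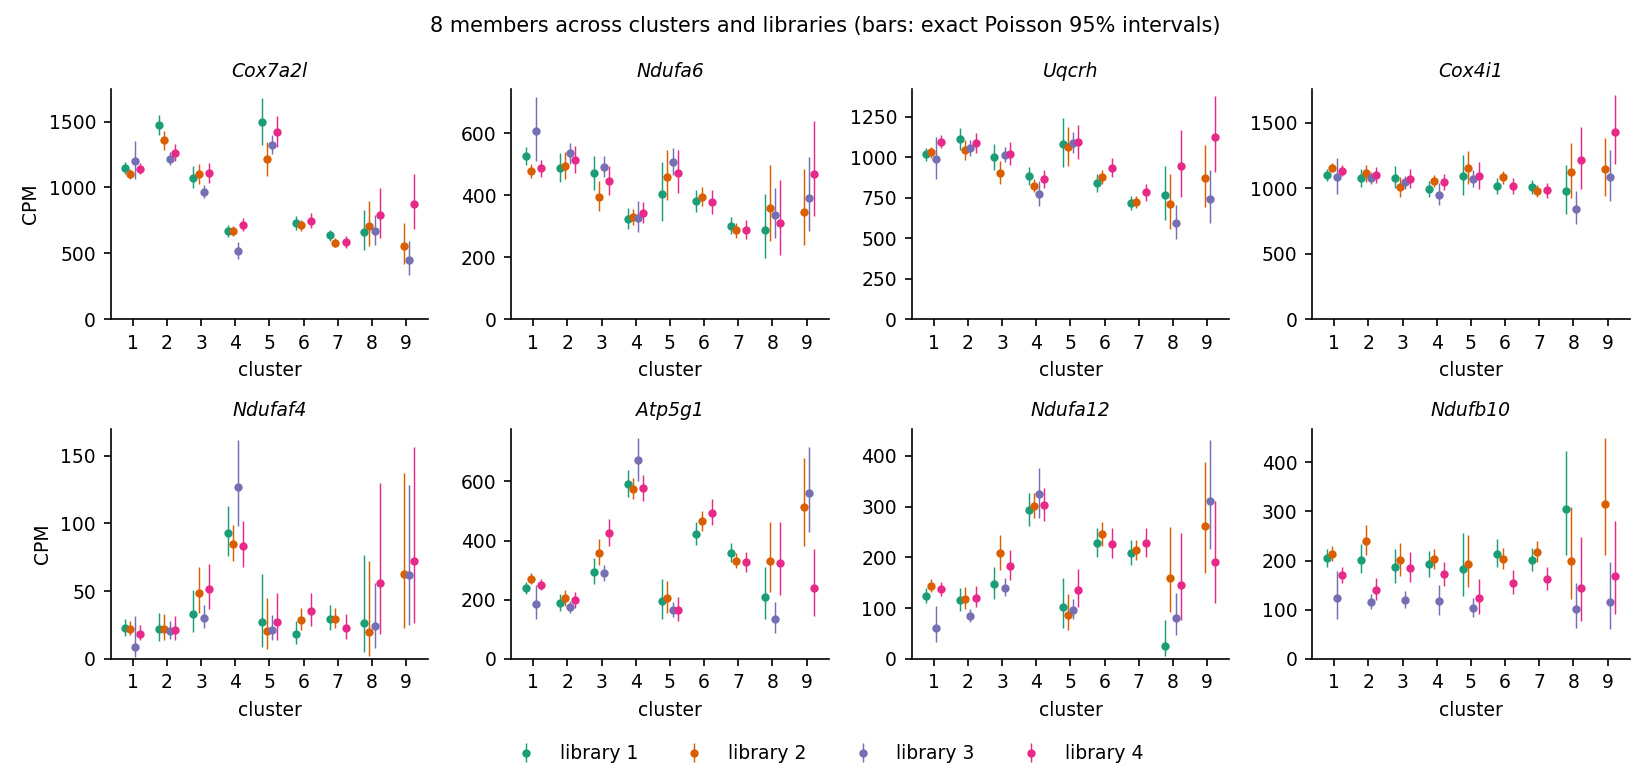
CPM of 8 members in each cluster and library with at least 20 cells, with exact Poisson 95% intervals. Cox7a2l, Ndufa6 and Uqcrh are high in clusters 1, 2 and 5 and low in 4 and 7, Ndufaf4, Atp5g1 and Ndufa12 peak in cluster 4, Cox4i1 is flat, and Ndufb10 is lowest in library 3 in nearly every cluster.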

How the data were processed

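Single cells were captured with the Chromium 3' v2 kit, per the labels' protocols. CASAVA 2.20, Cell Ranger 2.0.2, R 3.4.1 and mm10 were used, per the submitters' processing notes; how cells were filtered is not stated there. The authors deposited UMI counts for 27998 genes in 8273 cells (795 to 32737 UMIs per cell), and log2 values of scaled counts plus 1 for 9571 genes in 7231 G1 cells, used for the G1 cells' names and as 1 alternative.

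Symbols came from GENCODE M21 (276 identifiers had none). Ratios are Mantel-Haenszel CPM ratios over libraries, with 0.5 UMIs added for the log and 95% counting intervals. CPM printed beside them are plain sums. Intervals cover counting error only. Directions were read in libraries with 20 or more cells on each side. The contrast of cells outside the G1 table with G1-table cells was also run on Poisson counts drawn from the library profiles, with known folds put in. Those draws hold counting error only, as the intervals do, so they cannot show the effect of variation between cells. Clusters used scanpy 1.11.5 (2000 variable genes, 30 components, 15 neighbours, Leiden 0.6); a name needed 3 or more, and 50% or more, of the detected markers at 1.5-fold, with 1 among the 10 leading genes. No doublets were removed.

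Members, lists and named genes (the most and least abundant of each complex, up to 5 with the highest and lowest ratios in a comparison, tissue paralogs) were chosen with earlier results of these data known. On the same strand 12 members overlap another annotated gene, of which Ndufa13 (Yjefn3, 75 UMIs) is the member whose partner had most UMIs, so their reads could be split between both. Alternatives covered scaling, cell filters, weighting, thinning to 1811 UMIs, the fold and leaving out each library.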

Additional observations from a re-analysis of the deposited data

How the results depend on the processing

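Values come in the order members higher, members lower, summed log2 ratio of the members and of the mt- genes, for cells outside the G1 table against G1-table cells (3, 3, 0.02 and 0.37 as reported). Without mt- and ribosomal protein genes in the totals they were 0, 5, -0.051 and 0.30, with a median over all genes of -0.12, beside -0.05 as reported. Median-of-ratios scaling gave sums of 0.075 and 0.42, and cells with at least 500 genes and at most 10% mt- UMIs 0.040 and 0.23. Without the proliferating cluster they were 0, 14, -0.16 and 1.02. With each cell weighing alike they were 1, 5, -0.088 and 0.94, and thinning gave sums of -0.0057 and 0.62. At 1.5-fold 0 were higher and 1 lower. Leaving out 1 library gave 1 to 5 higher, sums of -0.0015 to 0.042 and 0.26 to 0.44. Alternatives chosen after seeing the data were: without cluster 8, 7 higher and sums of 0.051 and 0.21; without clusters 7 and 8, 0 higher and sums of -0.096 and 0.76; stratified by library and cluster, which asks for 1 direction in more strata, 0, 0, -0.093 and 0.59. The sum of complex IV (0.02) turned to -0.053 without mt- and ribosomal protein genes in the totals, -0.19 without cluster 7, -0.13 with cells weighing alike, -0.047 with thinning, -0.087 without clusters 7 and 8 and -0.095 stratified by cluster. The sum of complex V (0.07) turned to -0.18, -0.052, -0.13 and -0.11 without cluster 7, with cells weighing alike, without clusters 7 and 8 and stratified by cluster, and that of complex II (0.11) to -0.18 without cluster 7. The causes were not tested.

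For the members, the highest over the lowest library (1.17) was 1.16 with totals without mt- and ribosomal protein genes and 1.15 with median-of-ratios scaling. It was 1.16 in G1-table cells, 1.13 in the authors' normalized table, 1.16 without the proliferating cluster and 1.10 with clusters weighted alike. Library 3 was lowest in each. For the mt- genes the ratio was 1.05 over all cells and 1.04 with clusters weighted alike, with library 4 lowest in both. In the authors' normalized table it was 1.11, with library 3 lowest.

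Members called in clusters 1 to 9 numbered 16, 38, 0, 25, 28, 9, 17, 44 and 39. At 1.5-fold they were 3, 9, 0, 11, 5, 1, 2, 29 and 16. With each cell weighing alike clusters 1, 2, 3, 5 and 6 had 5, 19, 1, 14 and 23. In G1-table cells clusters 6, 7 and 8 had 15, 30 and 18. With totals without mt- and ribosomal protein genes clusters 6 and 9 had 20 and 24, and the summed ratio of cluster 7 was 0.01. Leaving out 1 library gave 0 to 1 for cluster 3 and 9 to 14 for cluster 6. For the clusters, the share of all genes called is given only for the first rule and at 1.5-fold. Member counts under the other alternatives, here and in the Results, therefore cannot be set against it.

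No paired analysis was possible because each genotype has 1 sample and no library is tied to one. Depth limits members of few UMIs, such as Ndufaf6 (233 UMIs).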

Other observations

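Other mitochondrial genes were read from the lists in the same way. In the TCR-signalled cluster 4, 6 of 18 genes of the citrate cycle and pyruvate dehydrogenase were higher (20.1% of all genes tested) and 0 lower (26.2%), among them Mdh2, the mitochondrial malate dehydrogenase, at 397 CPM in cluster 4 and 299 CPM in other cells (log2 0.39). Of 12 genes of cytochrome c and inner membrane carriers 6 were higher, led by Cycs, cytochrome c itself, at 565 CPM in cluster 4 and 264 CPM in other cells (log2 1.07), with Slc25a5, an ADP/ATP carrier, at 1282 and 963 CPM (log2 0.39). All 20 genes listed as targets of MYC, which drives growth, were called higher there, with a median log2 ratio of 1.68. In cluster 2, 7 of the 12 carrier genes were lower (19.7% of genes), Cycs at 182 CPM in cluster 2 and 328 CPM in other cells (log2 -0.81), and the same 20 genes were all lower, with a median of -1.46.

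Cluster 8 had 10 of the 12 carrier genes lower (16.3% of genes), with Slc25a5 at 323 CPM in cluster 8 and 1019 CPM in other cells (log2 -1.57), and 5 of 18 citrate cycle genes lower. Cluster 9 had 10 of 18 citrate cycle genes higher (17.1% of genes) and 0 lower (6.32%), with a median of 0.69 beside 0.27 over all genes. Among other assembly factors Uqcc3, which acts in complex III assembly, had the sign of Cox7a2l in clusters 2, 4 and 7: it was higher in cluster 2 (227 CPM in cluster 2, 169 CPM in other cells) and lower in cluster 4 (126 CPM in cluster 4, 186 CPM in other cells) and cluster 7 (105 CPM in cluster 7, 189 CPM in other cells). Uqcc3 is a single example, given without a count over the other assembly factors listed.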
